A study of Oryzias latipes with 6 samples.

Results

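Cluster 2 is 1 of 14 clusters of nuclei that the study's authors separated in the adult medaka brain, and it is thalamic or tectal neuron-like by 6 of 7 marker genes. Its members are the nuclei behind the authors' deposited table for that cluster, which lists all 24365 genes of the annotation. By arithmetic on the authors' deposited tables, it holds about 787 of 7512 nuclei, 463 of the BaP lineage and 324 of the control lineage. The total for all 6 fish is smaller than the 8000 nuclei that the protocol aimed at for each, and as the gap is unexplained here, the derived nuclei, depths and intervals carry that doubt. The fish were F1 Japanese medaka (Oryzias latipes), all male and 6 months old, whose whole brains were profiled by droplet-based 3' single-nucleus RNA-seq in a single sequencing batch. In the BaP lineage (3 fish), the parents had lived for 21 days with the combustion product benzo[a]pyrene (BaP) at 1 µg/L, which activates the aryl hydrocarbon receptor. In the control lineage (3 fish), the parents had spent the same 21 days in solvent. The F1 fish of both lineages grew up in clean water and were never exposed themselves, so the comparison asks how this population differs between the offspring of exposed and unexposed parents.

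The optic tectum is the main visual centre of the fish midbrain, and the thalamus and pretectum in front of it relay and sort sensory input. Neurons of these regions keep regional transcription factors into adult life, among them Pou4f (Brn3), Pax7, Otx2, Lhx9, Barhl2 and AP-2 family members, and many of them release GABA. Pro-opiomelanocortin, the product of pomca, is the precursor of ACTH and melanocyte-stimulating hormone, and it is best known from the pituitary and the hypothalamus.

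The authors' deposited tables hold no value for a single fish, so levels are given per lineage and no difference below has an error across the 3 fish. The p-values appear to treat each nucleus as a replicate, inferred from the arithmetic of the tables, and so they measure the spread between nuclei. Calculated from the authors' deposited tables, cluster 2 made up 9.11% of BaP-lineage nuclei and 13.3% of control-lineage nuclei, with no spread across fish to test the difference. It was the deepest cluster, with a mean of 1880 UMIs (molecular barcodes that count captured transcripts) per BaP-lineage nucleus and 1942 per control-lineage nucleus, calculated from the authors' deposited table. The means of the other 13 clusters lay between 684 and 1777 UMIs. In cluster 2, 18163 genes were detected (74.5%). Levels are in CPM, that is, counts scaled to the same total per library, with the table's floor and prior counts taken out, and they are approximate. Calculated from the authors' deposited table, they sum to 1025140 CPM in the BaP lineage and 1174160 CPM in the control lineage, where equal totals were due. Pairs of CPM that lie close together can therefore change direction when each lineage is scaled to its own total. Fold changes are the authors' log2 values, with the BaP lineage on top. The table's name codes the groups this way and its header does not state it. They appear damped toward 0 for genes with few counts.

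Regional transcription factors stood above their mean level in the other clusters in cluster 2, and they did so in both lineages. All 7 marker genes stood at 2 times or more their mean level in the other 13 clusters, calculated from the authors' deposited tables, and 6 of them did so in each lineage taken alone. As the clusters were built from the same nuclei, these ratios describe the cluster and test nothing. For pou4f2, a POU-domain factor of tectal and retinal projection neurons, the level was 122 CPM in BaP-lineage nuclei and 147 CPM in control-lineage nuclei, from the authors' deposited table. Its mean over both lineages was 7.65 times that of the other clusters. The paired-box factor pax7a, a marker of the dorsal midbrain, had 204 CPM in the BaP lineage and 183 CPM in the control lineage by the authors' deposited table, and stood at 5.99 times the mean of the others. Neither gene was called different between lineages.

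The homeobox factor otx2b, which marks forebrain and midbrain, had 97.4 CPM in BaP-lineage nuclei and 98.1 CPM in control-lineage nuclei in the authors' deposited table, 5.75 times the mean of the other clusters. The AP-2 factor tfap2d, known from the midbrain roof of vertebrates, had 90.3 CPM in the BaP lineage and 64.4 CPM in the control lineage by the authors' deposited table, 7.08 times the others' mean. Against the next-highest single cluster, the ratio was 1.27 for tfap2d (cluster 0) and 2.16 for otx2b (cluster 5), calculated from the authors' deposited tables. The thalamic factor barhl2 stood at 4.77 times the mean of the others and lhx9 at 3.54 times, calculated from the authors' deposited tables. The barhl2 ratio rests on few counts, about 7.69 UMIs in BaP-lineage nuclei and 8.77 UMIs in control-lineage nuclei. Its level was 8.83 CPM in the BaP lineage and 13.9 CPM in the control lineage, calculated from the authors' deposited table. For barhl2, cluster 8 was the next-highest cluster (ratio 1.56). For lhx9, cluster 10 had the higher level, so that cluster 2 stood at 0.752 times cluster 10. Cluster 0 was the next-highest cluster for pou4f2 as well (ratio 1.69), and cluster 9 was for pax7a (ratio 1.63), calculated from the authors' deposited tables. Among the regional markers, otx2b alone reached 2 times the next-highest cluster.

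The 7th marker, pomca, did not mark the cluster in both lineages. In control-lineage nuclei it stood at 143 times its mean level in the other clusters, and in BaP-lineage nuclei at 0.547 times, calculated from the authors' deposited tables. The control-lineage ratio has a small base, as the other clusters together held 22.4 pomca UMIs in control-lineage nuclei. Within cluster 2, pomca is therefore a marker of control-lineage nuclei alone, and it is described with the lineage differences. How many of those nuclei or fish carried it is not known here.

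**Figure D1:**
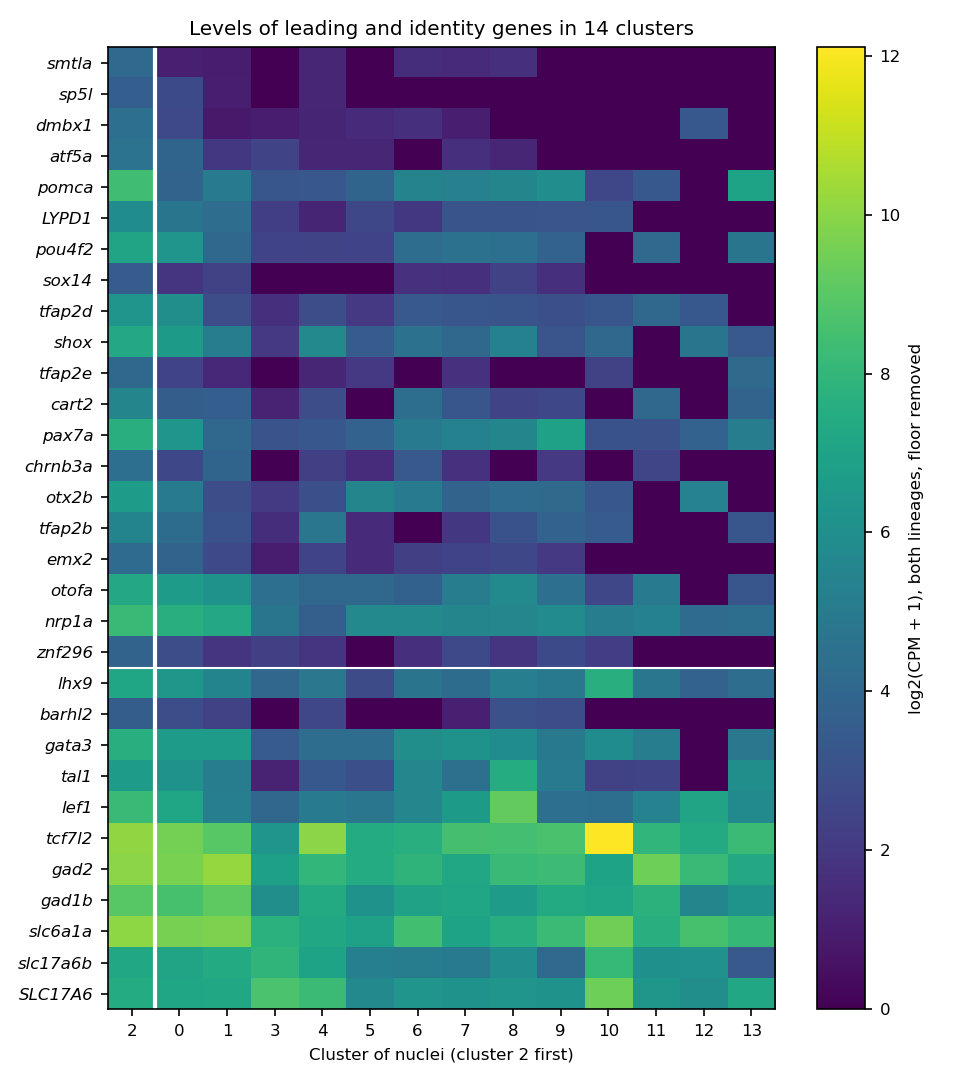
Levels of 20 leading genes with a symbol of cluster 2 (above the thin line) and of other regional and transmitter genes (below it). Values are log2(CPM + 1) over both lineages, with the floor of undetected genes removed. Columns are the 14 clusters with cluster 2 at the left. Most rows are brightest there, and cluster 0 is next for several of them. Genes such as tcf7l2, lhx9, slc17a6b and SLC17A6 are brighter in cluster 10.

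Beyond the markers, the genes with the highest ratio to the other clusters, ranked among those with a symbol, were again mostly transcription factors. Of 9201 genes with at least 10 CPM, 354 stood at 2 times or more the mean of the other clusters and 272 were higher than in any of them, calculated from the authors' deposited tables. Leading factors were sp5l (17.9 times), atf5a (10.9 times) and sox14, a factor of thalamic and tectal GABAergic neurons (7.62 times), from the authors' deposited tables. The midbrain homeobox gene dmbx1 ranked between the first pair of these, with 21.0 CPM in the BaP lineage and 20.5 CPM in the control lineage of the authors' deposited table. The short stature homeobox gene shox (6.22 times), the AP-2 genes tfap2e (6.13 times) and tfap2b (5.67 times), the homeobox gene emx2 (5.53 times) and the zinc-finger gene znf296 (5.14 times) followed, calculated from the authors' deposited tables. Over both lineages, sp5l had 11.2 CPM and sox14 10.4 CPM, close to the limit of 10 CPM. For tfap2e, cluster 13 was higher (17.2 CPM, against 15.9 CPM in cluster 2).

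Genes of signalling and excitability completed the leading 20. They were LYPD1, of a family that binds nicotinic receptors (8.53 times), the neuropeptide gene cart2 (6.06 times), the nicotinic receptor subunit gene chrnb3a (5.92 times), otofa, a calcium sensor of exocytosis (5.26 times), and nrp1a, a semaphorin receptor, with 343 CPM in the BaP lineage and 236 CPM in the control lineage, calculated from the authors' deposited tables. The pituitary hormone gene smtla, for somatolactin, had the highest ratio (23.3 times) among genes with a symbol and at least 10 CPM. It was calculated from the authors' deposited tables on 2.28 UMIs in the BaP lineage and 23.0 UMIs in the control lineage. With smtla and pomca, 2 of the leading 20 are pituitary hormone genes, which the name of the cluster does not cover.

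In the wider list of thalamic and tectal factors, all 44 members in the table were detected and 24 stood at 2 times or more the mean of the other clusters, 26 in BaP-lineage nuclei alone and 24 in control-lineage nuclei alone, calculated from the authors' deposited tables. Their summed level was 4275 CPM in the BaP lineage and 3889 CPM in the control lineage by the authors' deposited table. Cluster 2 ranked behind cluster 10 by this sum, which there was 5854 CPM with tcf7l2, a thalamic factor, among its genes. Of all 24365 genes, the authors' deposited table called 0.131% higher and 0.575% lower at an adjusted p under 0.05. In the authors' deposited table, 1 of the 44 was called, lhx2b, a LIM-homeobox factor, with 7.22 CPM in the BaP lineage and 36.3 CPM in the control lineage (log2 fold change -0.48, adjusted p 0.0354). Their median log2 fold change was 0.03 in the authors' deposited table, beside -0.01 over all detected genes.

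Of 16 detected GABAergic markers 4 stood at 2 times or more the mean of the other clusters and 9 stood below that mean, among them dlx1a (0.626 times) and sp9 (0.193 times), calculated from the authors' deposited tables. The 4 were the GABA-synthesizing enzyme genes gad2 and gad1b, at 2.79 and 2.92 times the mean of the others, the GABA transporter gene slc6a1a at 2.96 times and the homeobox gene MEIS2 at 2.71 times, calculated from the authors' deposited tables. For gad2 the level was 1017 CPM in BaP-lineage nuclei and 1054 CPM in control-lineage nuclei, and cluster 1 was higher, with cluster 2 at 0.868 times its level, from the authors' deposited tables. The vesicular GABA transporter gene slc32a1 stood at 1.83 times the others' mean, calculated from the authors' deposited tables. None of the 11 detected glutamatergic markers reached 2 times, and the vesicular glutamate transporter genes slc17a6b and SLC17A6 stood at 1.53 and 0.966 times the mean of the others, from the authors' deposited tables. No member of either list was called between the lineages in cluster 2, and 1 glutamatergic and 0 GABAergic members had an unadjusted p under 0.05 by the authors' deposited table.

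Smaller signals of other neuron types were present. The tyrosine hydroxylase gene th, for catecholamine synthesis, had 22.0 CPM, at 4.20 times the mean of the other clusters, calculated from the authors' deposited tables. Of 18 detected habenula markers 9 reached 2 times, led by gng8 (21.0 times) and GPR151 (16.1 times), both at under 10 CPM, as calculated from the authors' deposited tables. By correlation of levels over genes, cluster 2 was most like cluster 1 (Spearman 0.947), cluster 0 (0.941) and cluster 3 (0.919), calculated from the authors' deposited tables, as a description over genes that are not independent.

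**Figure D2:**
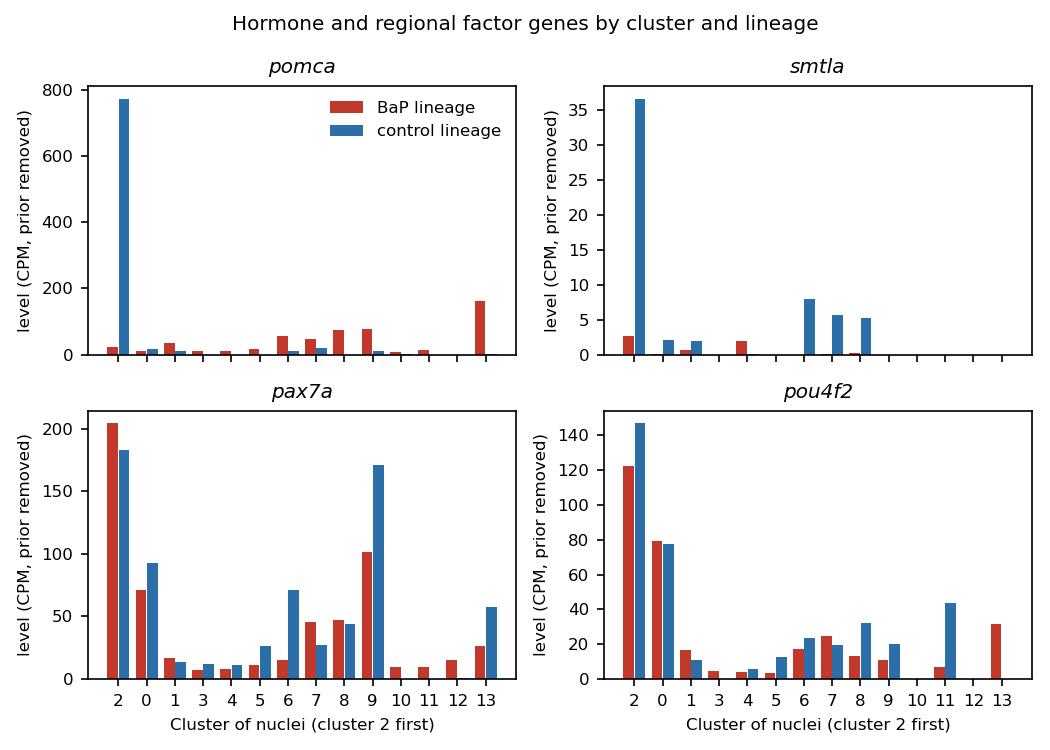
Level (CPM, prior count removed) of pomca, smtla, pax7a and pou4f2 in each of the 14 clusters, with cluster 2 at the left of each panel, and the BaP lineage (red) left of the control lineage (blue). The tall pomca bar is the 772 CPM of control-lineage nuclei in cluster 2, beside 21.8 CPM in the BaP lineage; pax7a and pou4f2 are at similar heights in both lineages there.

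The largest difference between the lineages in cluster 2 was that of pomca. Its level was 21.8 CPM in BaP-lineage nuclei and 772 CPM in control-lineage nuclei, about 19.0 and 486 UMIs, calculated from the authors' deposited table. In the authors' deposited table, the log2 fold change was -3.26 and the Benjamini-Hochberg adjusted p was 1.1e-19. With the prior count taken out it was -5.14, a ratio of 0.0283 with a 95% counting interval of 0.0169 to 0.0446, calculated from the authors' deposited table. This interval covers counting error only. How many of the 3 control-lineage fish, or how many nuclei, carried these UMIs is not known here.

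In the other 13 clusters pomca was not called, and its log2 fold change ran from -0.05 to 1.49 in the authors' deposited tables. Calculated from the authors' deposited tables, these clusters together held about 185 pomca UMIs in BaP-lineage nuclei and 22.4 in control-lineage nuclei. These counts are not scaled to depth or nuclei. Over all 14 clusters the BaP lineage had 5083 nuclei and the control lineage 2429, so the counts overstate the difference in level. Cluster 13 had the highest of these levels, with 162 CPM (12.7 UMIs) in the BaP lineage and no whole UMI in its 14 control-lineage nuclei, and in cluster 9 the levels were 76.6 and 11.8 CPM in BaP-lineage and control-lineage nuclei of the authors' deposited tables. The difference in fold change between cluster 2 and the others was not tested.

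The other pituitary hormone gene among the leading genes, smtla, was lower as well. It had 2.28 UMIs in BaP-lineage nuclei and 23.0 in control-lineage nuclei, a ratio of 0.0716 with a 95% counting interval of 0.00718 to 0.254, calculated from the authors' deposited table (log2 fold change -0.58, adjusted p 0.0134). Of 13 pituitary markers in the table, 8 were detected and 5 had no count, among them the prolactin gene prl and the gonadotropin genes lhb and fshb. The 8 summed to 293 CPM in the BaP lineage and 1112 CPM in the control lineage of the authors' deposited table. Of these, 0 were called higher and 2 lower, beside 0.131% and 0.575% of all genes. The 2 were pomca and smtla, which were named as leading genes from the same values. Without pomca and smtla, the other 6 summed to 269 CPM in BaP-lineage nuclei and 303 CPM in control-lineage nuclei, calculated from the authors' deposited table, and the median log2 fold change of the 8 was -0.10. Scaled to each lineage's own total, the sums of these 6 lay close together in the reverse order. Most of both sums was pcsk1, with 216 CPM in BaP-lineage nuclei and 250 CPM in control-lineage nuclei. Over both lineages, cluster 1 had more pcsk1 (297 CPM) than cluster 2 (230 CPM). The part of pituitary cells or their RNA in the pomca difference was not tested.

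Genes that process pro-opiomelanocortin or receive its peptides were not called. Of 8 detected, 0 were called and 2 had an unadjusted p under 0.05 by the authors' deposited table, and their summed level was 1141 CPM in the BaP lineage and 1189 CPM in the control lineage. As a share of UMIs the order was reversed, at 0.111% in the BaP lineage and 0.101% in the control lineage. The prohormone convertase gene pcsk1 had 216 CPM in BaP-lineage nuclei and 250 CPM in control-lineage nuclei, and pcsk2 had 154 and 103 CPM in BaP-lineage and control-lineage nuclei of the authors' deposited table. The neuropeptide gene cart2 had 31.4 CPM in the BaP lineage and 63.5 CPM in the control lineage, and its adjusted p was 0.987 in the authors' deposited table.

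**Figure D3:**
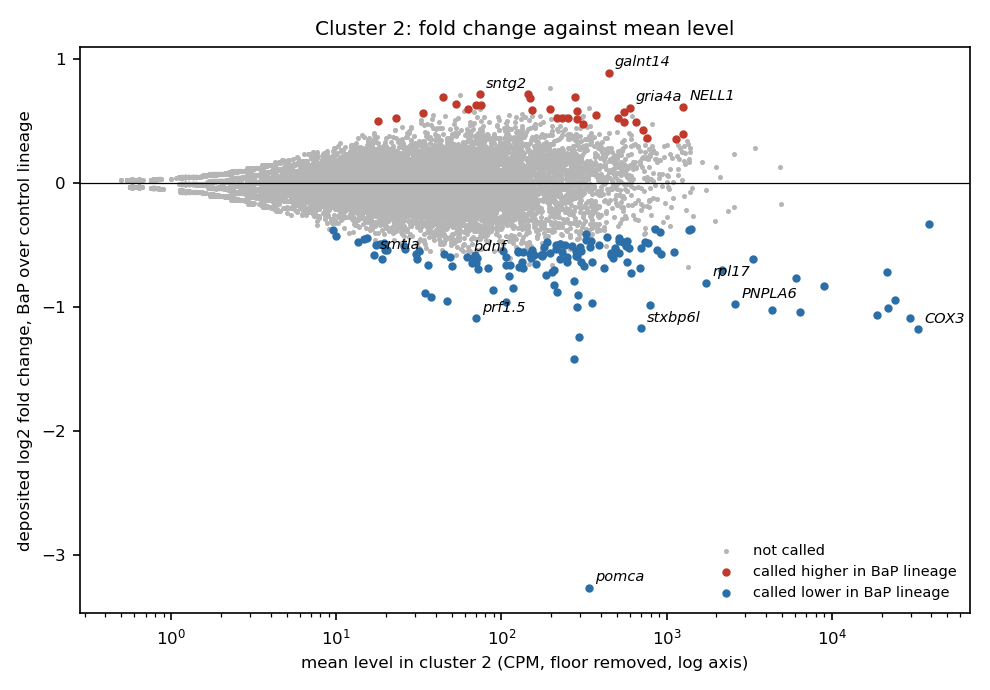
Deposited log2 fold change (BaP over control lineage) against mean level (CPM, log axis) of each detected gene of cluster 2. Red points are the 32 genes called higher, blue points the 140 called lower and grey points the genes not called; pomca lies alone at -3.26, and the mitochondrially encoded genes lie at the right, below 0.

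In cluster 2 as a whole, 32 genes (0.131% of 24365) had an adjusted p under 0.05 and were higher in BaP-lineage nuclei, and 140 (0.575%) were lower, 0.706% in all by the authors' deposited table. The higher genes had a median log2 fold change of 0.57 (0.36 to 0.89) and the lower genes one of -0.58 (-3.26 to -0.33) in the authors' deposited table. Of the lower genes, 11 had a log2 fold change of 1 or more in size in the authors' deposited table, and of the higher genes 0 did. Most called genes were well covered. Fewer than 3 UMIs stood in a lineage for 1 higher gene and 4 lower genes, calculated from the authors' deposited table. Of the 9081 genes above the median level of detected genes, 32 were called higher and 138 lower. Nearly all calls lie there, so lists of well-detected genes can hold a larger share of calls than all genes do by level alone.

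Among the genes called higher, the smallest adjusted p was that of galnt14, which encodes an enzyme that starts O-linked glycan chains on proteins. It had 567 CPM in BaP-lineage nuclei and 276 CPM in control-lineage nuclei, and its log2 fold change was 0.89 (adjusted p 1.03e-05 in the authors' deposited table). The authors' deposited tables also called galnt14 higher in clusters 0 and 1. NELL1, gria1a and fkbp5, described below, had an adjusted p under 0.05 in another cluster as well (smallest 6.54e-07, 4.32e-06 and 2.54e-11). NALF1, gria4a and SLITRK3 did not (smallest 0.101, 0.733 and 0.121). NALF1, an auxiliary subunit of the sodium leak channel that sets resting excitability, had 647 CPM in the BaP lineage and 413 CPM in the control lineage (log2 fold change 0.57, adjusted p 0.000705 in the authors' deposited table). PEA15, a cytoplasmic regulator of ERK signalling, had 344 CPM in the BaP lineage and 188 CPM in the control lineage (log2 fold change 0.69, adjusted p 0.000472 in the authors' deposited table).

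Other genes high in this ranking followed. The pyridoxal kinase gene pdxkb, whose product makes the active form of vitamin B6, rose to 185 CPM in BaP-lineage nuclei, against 86.5 CPM in control-lineage nuclei (log2 fold change 0.72 in the authors' deposited table). The syntaxin-binding gene stxbp5l (tomosyn family, inhibitors of vesicle fusion) had 756 CPM in the BaP lineage and 517 CPM in the control lineage, a log2 fold change of 0.50 by the authors' deposited table. The secreted protein gene NELL1 had 1489 CPM in the BaP lineage and 949 CPM in the control lineage (0.62 in the authors' deposited table), and ccdc85al had 345 and 210 CPM in BaP-lineage and control-lineage nuclei (0.58). By size, sntg2, a syntrophin of the dystrophin complex (0.72), and septin9b, a septin of the cytoskeleton (0.69), also stood among the highest log2 fold changes of the authors' deposited table.

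**Figure D4:**
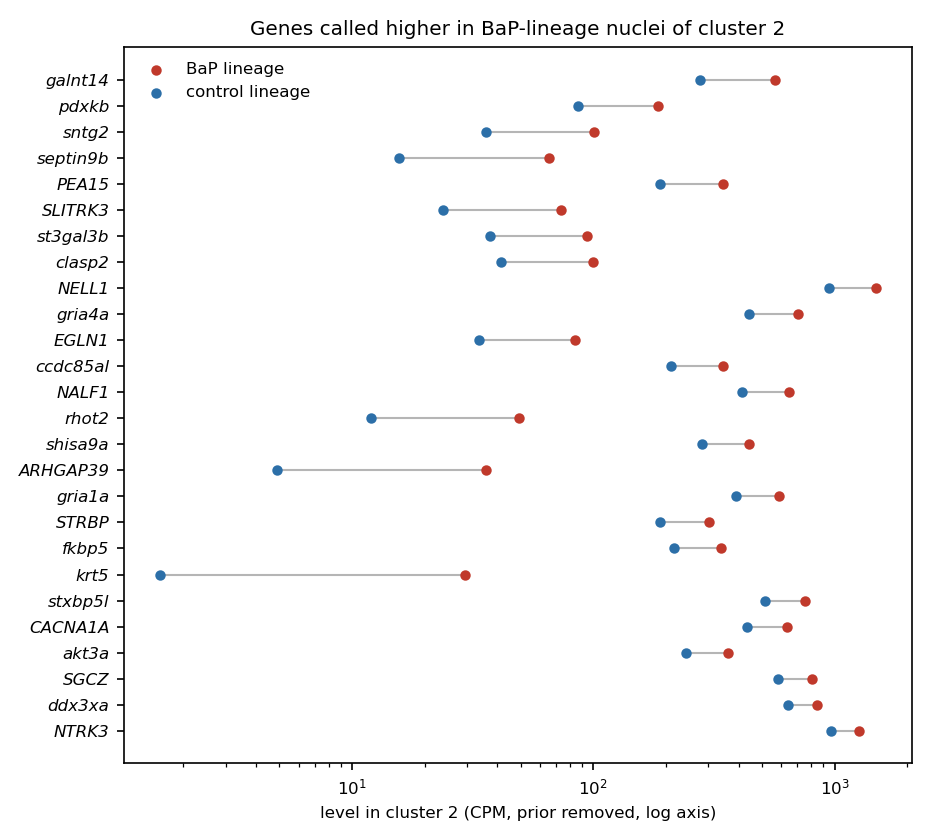
Level (CPM, prior count removed, log axis) in BaP-lineage (red) and control-lineage (blue) nuclei of cluster 2 for 26 genes with a symbol that were called higher, ordered by deposited log2 fold change. The gap is widest for genes of low level such as krt5 (29.5 CPM in the BaP lineage and 1.60 CPM in the control lineage), whose deposited fold changes are the most damped.

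AMPA receptors carry fast excitatory transmission, and 2 of their 5 detected subunit genes were called higher in the authors' deposited table, where 0.131% of all genes were. The subunit gene gria4a had 707 CPM in BaP-lineage nuclei and 441 CPM in control-lineage nuclei (log2 fold change 0.61, adjusted p 0.00269 in the authors' deposited table). For gria1a the levels were 591 CPM in the BaP lineage and 390 CPM in the control lineage (0.53, adjusted p 0.0298 in the authors' deposited table). The other 3 were not called. They were gria4b (0.37), gria3a (0.31) and gria2b (-0.07) in the authors' deposited table, so gria2b, which encodes the subunit that limits calcium entry, had the only value below 0. An auxiliary subunit of AMPA receptors, shisa9a, was called higher too, with 443 CPM in the BaP lineage and 281 CPM in the control lineage (0.55 in the authors' deposited table); it is in none of the lists and was chosen after its values were seen.

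Other synaptic lists held few calls, to be read beside the 0.131% of all genes called higher and 0.575% called lower. Among 90 detected adhesion genes of the synapse, those called higher included SLITRK3, an organizer of inhibitory synapses, and 0 were called lower in the authors' deposited table. SLITRK3 had 73.7 CPM in the BaP lineage and 23.9 CPM in the control lineage (log2 fold change 0.64 in the authors' deposited table). Of 28 sodium and calcium channel genes 1 was called higher, CACNA1A, the pore of P/Q-type calcium channels, with 634 CPM in the BaP lineage and 432 CPM in the control lineage (0.49 in the authors' deposited table).

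None was called among 21 NMDA, kainate and metabotropic glutamate receptor genes, 27 postsynaptic genes, 64 potassium channel genes, 71 axon guidance genes and 18 genes of calcium buffering and IP3 signalling in the authors' deposited table. Their median log2 fold changes were 0.15, 0.11, 0.01, 0.06 and 0.09, and 4, 5, 6, 10 and 3 members had an unadjusted p under 0.05 by the authors' deposited table. Of 28 genes of the GABA synapse 1 was called, lower: abat, the enzyme that degrades GABA, with 579 CPM in BaP-lineage nuclei and 861 CPM in control-lineage nuclei (-0.52 in the authors' deposited table). Of 86 genes of vesicle release 1 was called lower, nsfb, for a factor that takes apart used SNARE complexes, with 11.8 CPM in the BaP lineage and 44.7 CPM in the control lineage (-0.51 in the authors' deposited table).

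These medians depend on the total to which the lineages are scaled. Leaving mitochondrially encoded genes out of both totals lowers every other log2 fold change by 0.14, calculated from the authors' deposited table. This holds only if both lineages' levels sum to the same total, which they did not. The size and direction of the shift are therefore uncertain. On that condition, the medians of the AMPA receptors (0.23) and of the other glutamate receptors (0.01) stayed above 0. Those of the postsynaptic (-0.03), adhesion (-0.05), sodium and calcium channel (-0.02), potassium channel (-0.12), axon guidance (-0.07), vesicle (-0.10), GABA synapse (-0.04) and calcium buffering lists (-0.05) fell below it, calculated from the authors' deposited table.

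**Figure D5:**
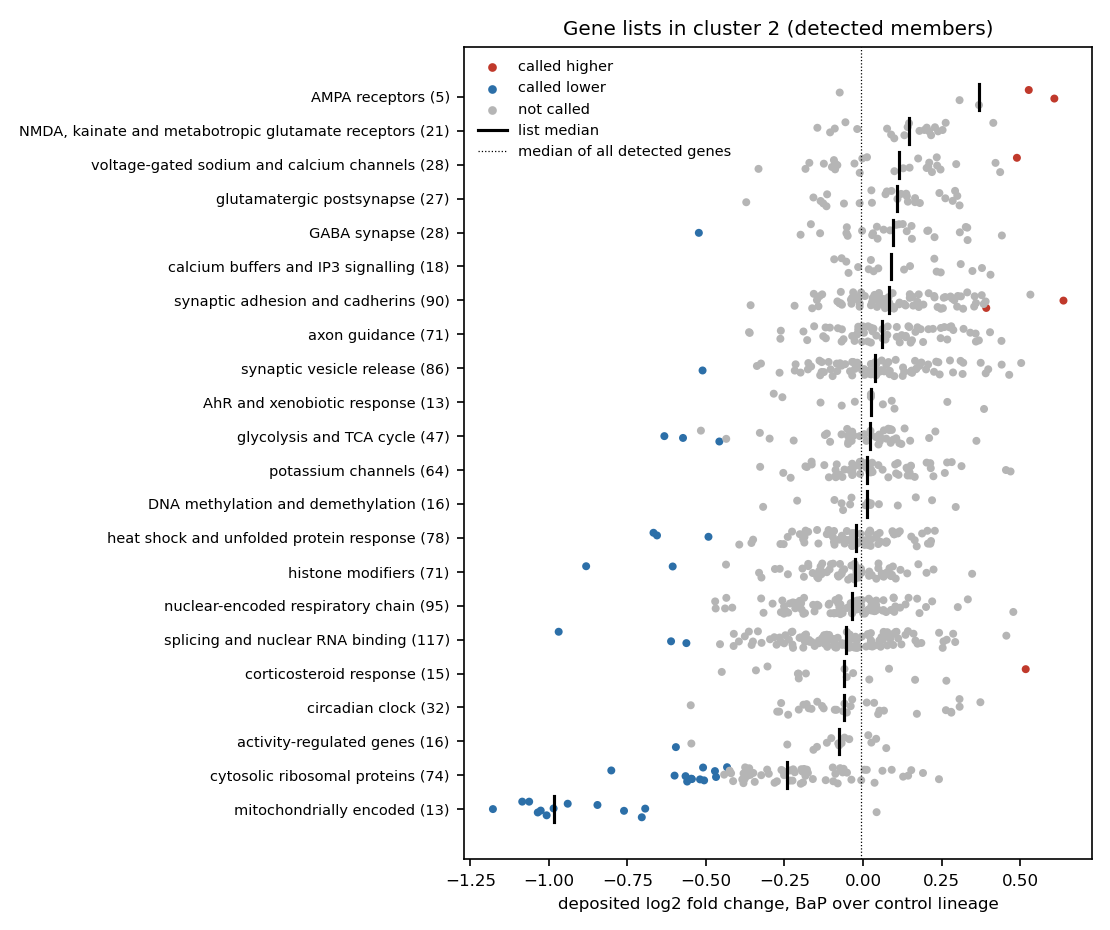
Deposited log2 fold changes (BaP over control lineage) of the detected members of 22 gene lists in cluster 2, with the number of members in brackets, list medians as black bars and the median of all detected genes as a dotted line. Mitochondrially encoded and ribosomal protein genes lie to the left, AMPA receptor genes other than gria2b to the right. Under a total without mitochondrial genes all points but the mitochondrial ones move left by 0.14, if both lineages' levels sum to the same total.

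BaP-lineage nuclei had fewer transcripts of the mitochondrial genome. Of 13 protein-coding genes 12 were called lower in the authors' deposited table, where 0.575% of all genes were, with a median log2 fold change of -0.98. Together they made 9.99% of UMIs in BaP-lineage nuclei and 18.0% in control-lineage nuclei, calculated from the authors' deposited table. COX3 of cytochrome c oxidase fell to 21837 CPM in the BaP lineage, against 49494 CPM in the control lineage (log2 fold change -1.18 in the authors' deposited table), and CYTB of complex III had 12890 and 26996 CPM in BaP-lineage and control-lineage nuclei (-1.06). ND4L of complex I, with 72.0 CPM in BaP-lineage nuclei and 67.9 CPM in control-lineage nuclei, was the one not called (0.04 in the authors' deposited table).

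The 3 mitochondrially encoded cytochrome c oxidase genes had log2 fold changes of -1.18 (COX3), -1.08 (COX2) and -0.94 (COX1) in the authors' deposited table. Called complex I genes ran from -1.04 (ND4) and -1.03 (ND2) to -0.69 (ND6), and the ATP synthase genes had -1.01 (ATP6) and -0.85 (ATP8) in the authors' deposited table. Of 95 nuclear genes for the same respiratory complexes 0 were called, and 11 had an unadjusted p under 0.05, with a median of -0.03 in the authors' deposited table. Negative values were found for 62 of the 95. The median was -0.09 over members above the median level of detected genes and -0.23 with prior counts taken out, calculated from the authors' deposited table. With mitochondrial genes left out of both totals it was -0.17, if both lineages' levels sum to the same total. Mitochondrial transcripts are made outside the nucleus, so their share in a nuclear preparation also reflects cytoplasm that came along. The part of that share in the other differences was not tested.

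Genes of translation were also among the lower calls. Of 74 cytosolic ribosomal protein genes 12 were called lower and 0 higher, where 0.575% and 0.131% of all genes were, and 64 had a negative log2 fold change, with a median of -0.24 in the authors' deposited table. With mitochondrial genes left out of both totals the median was -0.38, on the same condition of equal totals, calculated from the authors' deposited table. The lowest was rpl17, with 1303 CPM in BaP-lineage nuclei and 2319 CPM in control-lineage nuclei (-0.80, adjusted p 5.47e-17 in the authors' deposited table). Others were faua, a ribosomal protein fused to a ubiquitin-like domain (-0.55), rpl10 (-0.56) and rpl31 (-0.56) in the authors' deposited table. The list summed to 22206 CPM in the BaP lineage and 28552 CPM in the control lineage, calculated from the authors' deposited table. As a share of each lineage's own UMIs, it made 2.17% in the BaP lineage and 2.43% in the control lineage. The gap was smaller on that scale, so the size of the decrease depends on the total used.

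The median of 47 genes of glycolysis and the TCA cycle was 0.02 in the authors' deposited table (-0.03 over members above the median level of detected genes). Of these 47, 3 were called lower, all glycolytic, beside 0.575% of all genes. They were gapdhs, for glyceraldehyde-3-phosphate dehydrogenase, with 755 CPM in BaP-lineage nuclei and 1156 CPM in control-lineage nuclei (-0.57), eno1a, an enolase (-0.63), and pkma, a pyruvate kinase (-0.46), in the authors' deposited table. Of 78 heat shock and unfolded protein response genes 3 were lower, beside the same 0.575%, and the median was -0.02 in the authors' deposited table. They were DNAJC6 (auxilin), which strips clathrin from synaptic vesicles (-0.67), the HSP90 gene hsp90aa1.2 (-0.66) and HSF1, the main heat shock transcription factor (-0.49), in the authors' deposited table.

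Of 117 splicing and nuclear RNA-binding genes 3 were called lower and 0 higher, beside 0.575% and 0.131% of all genes. The median was -0.05 in the authors' deposited table. The cyclin gene ccnl1a, whose product associates with splicing factors, had 233 CPM in BaP-lineage nuclei and 519 CPM in control-lineage nuclei (-0.97), and the splicing regulators mbnl1 and tra2b had log2 fold changes of -0.61 and -0.56 in the authors' deposited table. Beside the same shares, 2 of 71 histone modifiers were called lower and 0 higher, with a median of -0.03 in the authors' deposited table. The 2 were the deacetylase gene hdac9b (-0.88) and suz12a, of Polycomb repressive complex 2 (-0.61).

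Outside the lists, the lowest log2 fold changes with a symbol included stxbp6l, of the amisyn family of SNARE regulators, with 435 CPM in BaP-lineage nuclei and 1059 CPM in control-lineage nuclei (-1.17 in the authors' deposited table). The perforin-family gene prf1.5 had 26.4 CPM in the BaP lineage and 130 CPM in the control lineage (-1.09), and 1863 CPM over both lineages in cluster 8, by the authors' deposited tables. Of genes with no symbol, ENSORLG00000009233 had 164 CPM in the BaP lineage and 476 CPM in the control lineage (-1.24 in the authors' deposited table). The neurotrophin gene bdnf, the 1 call among 16 activity-regulated genes, had 39.2 CPM in BaP-lineage nuclei and 92.8 CPM in control-lineage nuclei (-0.60, adjusted p 0.0322 in the authors' deposited table). Of all genes, 0.575% were called lower. Among the 16, 12 were negative, with a median log2 fold change of -0.08. It was -0.15 over members above the median level of detected genes and -0.50 with prior counts taken out.

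Single markers of other cell types were called in cluster 2, to be read beside the 0.131% of all genes called higher and 0.575% called lower. The myelin gene mbpb had 197 CPM in BaP-lineage nuclei and 425 CPM in control-lineage nuclei (log2 fold change -0.90 in the authors' deposited table). The 14 detected oligodendrocyte markers, 13 of them negative, summed to 396 CPM in the BaP lineage and 751 CPM in the control lineage, with 1 called lower in the authors' deposited table. The glutamine synthetase gene glula, a radial glia marker, had 463 CPM in the BaP lineage and 809 CPM in the control lineage (-0.73), and the 14 detected radial glia markers summed to 2113 and 2850 CPM in BaP-lineage and control-lineage nuclei of the authors' deposited table. Of these 14, 6 were positive and 8 negative, with 1 called lower and a median of -0.01 by the authors' deposited table.

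Erythrocyte markers summed to 1597 CPM in BaP-lineage nuclei and 2813 CPM in control-lineage nuclei, over 7 detected genes. Beside 0.575% of all genes, 1 of the 7 was called lower, ENSORLG00000026256 (-1.42 in the authors' deposited table). It has no symbol, and it was put on that list from earlier results of these data. The keratin gene krt5 was higher, with 25.7 UMIs in the BaP lineage and 1.01 UMIs in the control lineage, a ratio of 18.5 with a 95% counting interval of 3.09 to 771, calculated from the authors' deposited table. The 11 detected epithelial markers summed to 114 CPM in the BaP lineage and 129 CPM in the control lineage of the authors' deposited table. As a share of UMIs they made 0.0111% in the BaP lineage and 0.0110% in the control lineage. The pituitary, radial glia, oligodendrocyte, erythrocyte and epithelium lists hold 1 of the higher and 5 of the lower calls of the authors' deposited table, so 31 and 135 remain by subtraction. The part of RNA from other cells in those was not tested.

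Markers of some other types were low in both lineages. Microglia or leukocyte markers summed to 46.7 CPM in the BaP lineage and 44.0 CPM in the control lineage, endothelial markers to 85.8 and 123 CPM in BaP-lineage and control-lineage nuclei, and skeletal muscle markers to 31.3 and 21.7 CPM in BaP-lineage and control-lineage nuclei of the authors' deposited table. No member of these 3 lists was called or had an unadjusted p under 0.05.

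No gene of the aryl hydrocarbon receptor list or of the DNA methylation list was called in cluster 2. BaP acts through the aryl hydrocarbon receptor, which induces cytochrome P450 genes such as cyp1a. The list covers this receptor and xenobiotic response and is not limited to genes that the receptor induces. Of its 13 detected genes 0 were called higher or lower. Their log2 fold changes were -0.28 to 0.39, with 2 unadjusted p values under 0.05 in the authors' deposited table. The highest levels were those of keap1b, a sensor of oxidative stress, with 73.8 CPM in BaP-lineage nuclei and 41.2 CPM in control-lineage nuclei (0.39), and aip, a chaperone of the receptor, with 46.7 and 71.2 CPM in BaP-lineage and control-lineage nuclei of the authors' deposited table (-0.28). Of 16 detected genes of DNA methylation and demethylation 0 were called, at -0.32 to 0.30, again with 2 unadjusted p values under 0.05 in the authors' deposited table. The highest levels here were those of the demethylation enzyme gene tet3, with 179 CPM in the BaP lineage and 171 CPM in the control lineage (0.05), and the methyltransferase gene dnmt3aa, with 114 and 101 CPM in BaP-lineage and control-lineage nuclei (0.11) of the authors' deposited table. A call missed at this depth does not show that these genes were alike in both lineages.

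Of 15 detected corticosteroid response genes 1 was called, fkbp5, a co-chaperone of the glucocorticoid receptor, beside 0.706% of all genes. It had 337 CPM in BaP-lineage nuclei and 216 CPM in control-lineage nuclei (0.52, adjusted p 0.0432 in the authors' deposited table). Of the 15, 10 were negative, with a median log2 fold change of -0.06 in the authors' deposited table. It was -0.19 over members above the median level of detected genes and -0.31 with prior counts taken out. Other targets of that receptor had values on both sides of 0 and were not called. TSC22D3 had 53.4 CPM in the BaP lineage and 97.0 CPM in the control lineage (-0.45), and pdk4 had 97.9 and 70.5 CPM in BaP-lineage and control-lineage nuclei (0.27) of the authors' deposited table. Both were chosen after their values were seen. Of 32 circadian clock genes 0 were called, 6 had an unadjusted p under 0.05, and the median was -0.06 in the authors' deposited table.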

How the data were processed

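Libraries were made with the 10x 3' kit from nuclei of each frozen brain, per the labels' protocols, and Cell Ranger was used per the submitters' processing notes, which give no version. Reads of the 6 libraries were aligned to a medaka assembly, aggregated, and compared within clusters, per the series design text. How nuclei were filtered and clustered, how doublets and free RNA were handled, and which tool made the comparison is not given in the sources used here. Per the file headers, the authors deposited a log2 fold change, a log2 mean CPM, a p-value and its adjusted value for each gene. Recomputed Benjamini-Hochberg values over the 24365 genes matched the deposited adjusted p-values to within 1.5e-14. Of these genes, 10340 have no symbol, and the RefSeq gene table used here (ASM223467v1) does not name them.

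The arithmetic of the deposited log2 values and p-values gave nuclei and depth, assuming prior counts of 2 (level) and 0.125 (fold change) per library, which no source states. In a simulated table modelled on cluster 2 (24365 genes), all 463 and 324 nuclei were recovered, as was the direction of 200 of 200 changed genes. The simulation makes the same assumptions, so it checks the arithmetic alone. Genes with 1 UMI came out at 0.886 UMIs. Depth per fish is unknown. Calls are genes with a deposited adjusted p under 0.05, without any further test. Counting intervals (95%) cover counting error only.

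The members, the 44 gene lists and the naming rule were chosen with earlier results of these data known. The rule takes the 7 markers and, per direction, the 10 called genes with a symbol of smallest adjusted p and the 6 of largest fold change. It takes up to 4 called members per list and the 20 genes with a symbol of highest ratio to the other clusters with at least 10 CPM. Also taken are the 4 of highest ratio per marker list and the 2 of highest level in the aryl hydrocarbon receptor and DNA methylation lists. At most 2 genes without a symbol are taken per direction. Of the genes the rule takes, 1 is not reported. Symbols were matched without regard to case or an added a or b. Alternatives varied the threshold, adjustment, minimum fold change, mean level, scaling, prior count and reference clusters. Calculations used Python 3.11 with numpy 2.4.6, pandas 2.3.3 and scipy 1.17.1.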

Additional observations from a re-analysis of the deposited data

How the results depend on the processing

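No paired analysis was possible because the authors' deposited tables hold no values per fish; leaving out each fish and the replicate block were therefore not run. The 32 genes higher became 58 at an adjusted p under 0.1, 12 under 0.01, 66 with the adjustment over genes above the median level, 5 by Bonferroni and 0 with a log2 fold change of 1 or more in size, in the authors' deposited table. The 140 lower became 83 under 0.01, 52 by Bonferroni and 11 with that size, and ranged from 128 (mitochondrial genes left out) to 198 (genes above the median level) elsewhere. Of the 7 identity markers, 2 (pomca and otx2b) stood at 2 times the highest other cluster. With the deposited mean levels as they stand, whose floor raises low genes, 0 stood at 2 times the mean of the others. Their ratios to that mean were then 0.635 to 0.816. With the median of the others or control-lineage means, 7 stood at 2 times or more. Of 22 functional lists, 13 had a median above 0, and 11 to 13 did under the planned settings. With mitochondrial genes left out of both totals 2 did, on the condition that both lineages' levels sum to the same total, which they did not. That setting was chosen after seeing the data, as were the limits on UMIs and on marker lists. The aryl hydrocarbon receptor and glycolysis lists also changed sign with the prior counts taken out (-0.15 and -0.06). The nuclei came to 787.2 from fold changes. Depth limits genes under 3 UMIs in a lineage (3.45 CPM in the BaP lineage, 4.77 CPM in the control lineage).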

Other observations

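Among genes that the report does not describe, chosen after their values were seen, several receptor genes stood above the mean of the other clusters in cluster 2. The melatonin receptor gene mtnr1bb had 138 CPM, the relaxin-family receptor gene rxfp2a 70.5 CPM and the nicotinic receptor gene CHRNA2 115 CPM, over both lineages and calculated from the authors' deposited table. These levels were 3.82, 3.58 and 3.84 times the mean of the other 13 clusters. The opsin gene opn7d had 20.1 CPM, at 3.42 times that mean, although cluster 1 was higher, and dmrt1, a transcription factor gene best known from testis development, had 24.7 CPM, at 3.69 times, calculated from the authors' deposited tables. None of the 5 was called between the lineages in cluster 2. In another cluster opn7d was called, with a smallest adjusted p of 0.00803 in the authors' deposited tables.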
